A study of Mus musculus with 6 samples.

Results

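The negative feedback regulators of WNT signaling described here are 10 genes: *Axin1*, *Axin2*, *Nkd1*, *Nkd2*, *Notum*, *Kremen1*, *Kremen2*, *Apcdd1*, *Znrf3* and *Rnf43*. Their products dampen the pathway at the membrane or inside the cell that receives the signal, except that NOTUM is secreted and acts on the ligands. The genes were picked by symbol, with earlier results of these data known. All 10 were found once among the 56748 gene identifiers of the count table. All 10 also passed the filter on low counts, which left 18188 genes for testing. RNA-Seq was performed on whole ureters of wildtype NMRI mouse embryos, dissected at E12.5 and cultured for 18 h on transwell membranes in medium with 15 mM LiCl or with water as control. LiCl is a salt that inhibits GSK3, the kinase that marks CTNNB1 for degradation, and can so activate the pathway below its receptors. The comparison asks how the feedback genes differ between LiCl and water. No other salt was among the groups, so effects through GSK3 were not tested apart from other effects of LiCl. Each group held 3 samples. The number of ureters per sample is not given in the sources used here, nor whether the samples came from separate litters, so that p-values measure only the spread between these samples. The RNA comes from a mixture of epithelium, mesenchyme and minor cell types, in which fewer cells of a type and less RNA per cell cannot be told apart.

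In canonical WNT signaling, a ligand binds a frizzled receptor and its LRP5/6 co-receptor, and the signal inactivates the complex of AXIN, APC and GSK3 that otherwise degrades CTNNB1. CTNNB1 then enters the nucleus and activates target genes together with TCF/LEF factors. Several proteins dampen the pathway, and some of them are encoded by such target genes. NOTUM removes the lipid that WNT ligands need, and KREMEN proteins withdraw LRP5/6 together with DKK. ZNRF3 and RNF43 are ubiquitin ligases that withdraw frizzled receptors, and APCDD1 binds ligand and co-receptor at the membrane. NKD proteins bind dishevelled, and AXIN2 joins the degradation complex. In the early ureter, WNT ligands from the epithelium signal to the adjacent mesenchyme.

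The total count was between 28473436 and 31266945 per sample, and the groups overlapped in depth. Other genes changed along with the feedback genes. At an adjusted p under 0.05 (edgeR), 21.1% of all genes tested rose and 22.4% fell, and the lists that follow were not tested against these shares. Of 10 mitotic genes, 10 rose, and their summed CPM (counts scaled to a common library size, with TMM factors) went from 690.8 to 769.8 in controls to 1535 to 1831 after LiCl. Of 10 epithelial markers, 8 fell and 1 rose, with a sum of 1312 to 1640 in controls and 962.1 to 1005 after LiCl. Of 10 markers of the ureteric mesenchyme, 8 fell and 1 rose, with a sum of 6764 to 7347 against 4910 to 5536. Skeletal muscle markers summed to 5.15 to 6.60 CPM in controls and to 5.37 to 62.6 after LiCl. LiCl replicates 1 and 3 were the high ones, and of the 10 genes, *Ckm* and *Tnnc2* were at or near 0 throughout. With LiCl replicate 2 as the only treated sample, assumed to vary like the controls, 7 of the 10 feedback genes rose at an adjusted p under 0.05 (edgeR), against 10.4% of all genes in that fit, and *Nkd2* no longer passed (adjusted p = 0.0612). The part of the marker lists in the results below was not tested.

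RefSeq promoter windows were found for 5 of the 10 genes (6 windows), in the build GRCm38.p6. The 250 bases before the start are printed from 5′ to 3′ on the strand of the gene, for *Axin2* and *Kremen2*, the genes among these 5 with the largest relative change after LiCl, and for the *Nkd1* and *Nkd2* pair, whose members differed most in level. Capitals mark CG dinucleotides. The windows are chr11:108920099-108920348 (plus strand) for *Axin2*, chr17:23745830-23746079 (minus strand) for *Kremen2*, chr8:88527383-88527632 (plus strand) for *Nkd1* and chr13:73847632-73847881 (minus strand) for *Nkd2*.
Axin2: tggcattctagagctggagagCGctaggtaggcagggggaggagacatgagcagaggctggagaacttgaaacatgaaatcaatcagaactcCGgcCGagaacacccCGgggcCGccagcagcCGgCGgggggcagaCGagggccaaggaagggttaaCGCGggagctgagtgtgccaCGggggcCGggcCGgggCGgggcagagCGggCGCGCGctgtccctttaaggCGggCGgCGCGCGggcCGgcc
Kremen2: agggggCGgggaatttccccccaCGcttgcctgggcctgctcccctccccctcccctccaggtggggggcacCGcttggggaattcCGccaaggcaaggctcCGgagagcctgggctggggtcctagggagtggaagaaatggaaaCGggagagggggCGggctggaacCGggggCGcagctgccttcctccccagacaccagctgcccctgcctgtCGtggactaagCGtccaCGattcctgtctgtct
Nkd1: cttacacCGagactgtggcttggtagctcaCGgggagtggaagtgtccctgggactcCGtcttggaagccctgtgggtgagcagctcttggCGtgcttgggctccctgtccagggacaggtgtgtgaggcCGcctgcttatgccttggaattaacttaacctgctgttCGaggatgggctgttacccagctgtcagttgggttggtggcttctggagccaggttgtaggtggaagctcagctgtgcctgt
Nkd2: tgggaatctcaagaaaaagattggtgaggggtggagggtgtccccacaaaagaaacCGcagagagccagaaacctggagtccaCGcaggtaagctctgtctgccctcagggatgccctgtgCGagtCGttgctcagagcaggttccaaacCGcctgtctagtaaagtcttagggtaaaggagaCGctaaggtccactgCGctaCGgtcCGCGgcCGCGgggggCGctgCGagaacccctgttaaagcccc

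The *Axin2* window held 24 CG dinucleotides and 69.2% GC, and 88% of the 32851 windows of the table held fewer. The *Kremen2* window held 12 CG dinucleotides (66.5% of windows held fewer), that of *Nkd2* held 14 (70.6%) and that of *Nkd1* held 6 (49.6%), which is also the median of all windows. The 2 windows of *Rnf43* held 8 and 2. The core letters of TCF/LEF motifs were searched on both strands as CTTTGAA (found in 1464 of all windows), as CTTTGAT (in 1053), as CTTTGTA (in 1052) and as CTTTGTT (in 1652). At least 1 of these motifs was in 14.8% of all windows and in 0 of the 6 windows of the feedback genes. This says only that these letters are not in these stretches. For *Nkd1*, the GENCODE annotation also lists a start further upstream, which the window does not cover.

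After LiCl, 8 of the 10 genes rose at an adjusted p under 0.05 (edgeR), against 21.1% of all genes tested, and none fell, against 22.4%. *Notum* and *Kremen2* also passed a log2 fold change of 1, which 2.74% of all genes did upwards and 4.59% downwards. *Kremen1* and *Rnf43* did not pass the test. At an unadjusted p under 0.05 the count that fell was also 0, and it was 0 with DESeq2 and limma. The median log2 fold change was 0.60 for the 10 genes and -0.01 for all genes tested. For 9 of the 10 genes, every LiCl sample lay above every control, which held for 26.4% of all genes. The opposite, every LiCl sample below every control, held for none of the 10 and for 27.8% of all genes.

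**Figure D1:**
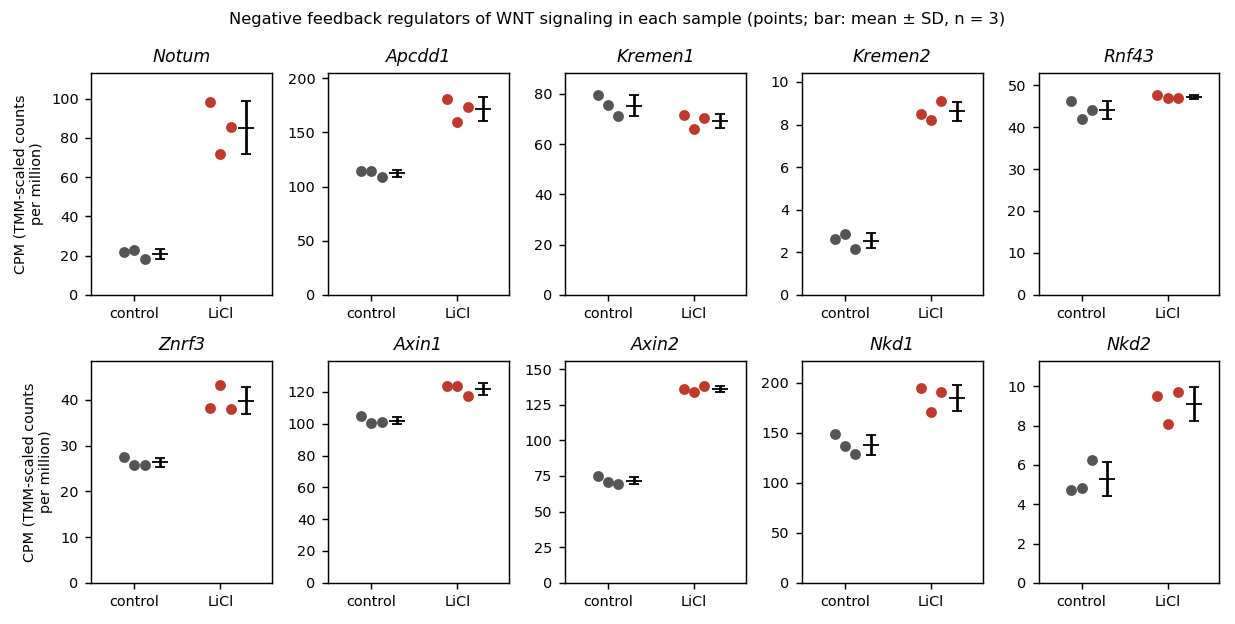
CPM (TMM-scaled counts, linear axes from 0) of the 10 feedback genes in the 3 control (grey) and 3 LiCl-treated (red) ureter samples, with bars for mean ± SD. The groups are apart for every gene except *Kremen1*, and the gap is widest relative to the control level for *Notum* and *Kremen2*.

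The secreted regulator showed the largest response. *Notum* (ENSMUSG00000042988), which encodes the extracellular enzyme that strips WNT ligands of their lipid, had 21.8, 22.9 and 18.1 CPM in the controls and 98.5, 71.7 and 85.7 CPM after LiCl. The lowest treated sample was thus well above the highest control, although the treated samples also differed among themselves. The level rose from 20.9 ± 2.53 to 85.3 ± 13.4 CPM (mean ± SD, n = 3), a log2 fold change of 2.03 ± 0.12 (SE) with an adjusted p of 3.56e-06, and *Notum* ranked 83 of 18188 genes by fold change. *Notum* shares its locus with *Notumos* and *Myadml2os*, transcripts annotated on the opposite strand. In the controls, 86, 132 and 91 reads were counted for *Notumos*, and 653, 394 and 465 after LiCl. For *Myadml2os* these were 43, 47 and 46 against 238, 149 and 175. In both, as in *Notum*, LiCl replicate 2 was the lowest treated sample. The library kit marks strand, but the strand setting of the counting is not given in the sources used here, so reads of *Notum* and its partners may not have been told apart. The counts of *Notum* itself, 554 to 712 in controls and 2002 to 3060 after LiCl, were above those of both partners in every sample.

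Among the regulators in the membrane, *Kremen2* (ENSMUSG00000040680) responded most. This DKK receptor gene had low counts, with 2.64, 2.83 and 2.15 CPM in the controls (66 to 88 counts), and reached 8.49, 8.23 and 9.12 CPM after LiCl (230 to 264 counts). The treated samples lay close together and far above all controls. The log2 fold change was 1.76 ± 0.14 (SE), with an adjusted p of 1.62e-05. The opposite-strand transcript *9530082P21Rik* overlaps *Kremen2* and had 63 to 99 counts in controls and 90 to 105 after LiCl, a log2 fold change of 0.32 ± 0.20 that did not pass the test (adjusted p = 0.227). Its paralog *Kremen1* (ENSMUSG00000020393) had 79.4, 75.4 and 71.1 CPM in controls and 71.4, 66.2 and 70.5 CPM after LiCl. Here the groups overlapped, and the difference of -0.12 ± 0.06 on the log2 scale did not pass the test (adjusted p = 0.122).

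*Apcdd1* (ENSMUSG00000071847), a membrane glycoprotein that inhibits WNT signaling upstream of CTNNB1, had 114, 115 and 108 CPM in the controls. After LiCl it had 181, 160 and 174 CPM, all above the controls, with replicate 2 again the lowest. It rose by a log2 fold change of 0.61 ± 0.06 (SE), a fold of 1.53 with an adjusted p of 4.29e-05.

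The ubiquitin ligases behaved unequally. *Znrf3* (ENSMUSG00000041961) had 27.5, 25.8 and 25.8 CPM in the controls and 38.3, 43.1 and 38.0 CPM after LiCl, so that replicate 2 was the highest treated sample here. Its log2 fold change was 0.59 ± 0.07 (SE), with an adjusted p of 1.40e-04. *Rnf43* (ENSMUSG00000034177) had 46.3, 41.9 and 44.1 CPM in controls and 47.8, 46.9 and 47.0 CPM after LiCl. Although the groups did not overlap, they were separated by less than 1 CPM, and the log2 fold change of 0.10 ± 0.05 did not pass the test (adjusted p = 0.162).

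Of the regulators inside the cell, *Axin2* (ENSMUSG00000000142), the AXIN family member widely used as a readout of canonical WNT signaling, had 74.8, 71.0 and 69.6 CPM in the controls and 136, 134 and 138 CPM after LiCl. The samples of each group lay within a few CPM of each other. It rose by 0.92 ± 0.05 (SE) on the log2 scale, a fold of 1.90 with an adjusted p of 1.40e-06, just under the log2 fold change of 1 that *Notum* and *Kremen2* passed. An antisense transcript at the locus, *Gm11670*, had 11 to 31 counts in any sample. *Axin1* (ENSMUSG00000024182), the constitutive scaffold of the degradation complex, had 105, 101 and 101 CPM in the controls and 124, 123 and 117 CPM after LiCl. This change was the smallest that passed the test among the 10 genes, a fold of 1.19 (log2 fold change 0.25 ± 0.05, adjusted p = 0.00203).

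*Nkd1* (ENSMUSG00000031661) and *Nkd2* (ENSMUSG00000021567) encode dishevelled-binding antagonists. *Nkd1* had 149, 137 and 129 CPM in the controls and 194, 170 and 191 CPM after LiCl. The treated samples lay above the controls, and the log2 fold change was 0.42 ± 0.07 (SE) with an adjusted p of 0.00105. *Nkd2* had 4.73, 4.83 and 6.27 CPM in the controls, and 9.49, 8.09 and 9.72 CPM after LiCl. Control replicate 3 stood above the other controls but below every treated sample. The log2 fold change was 0.79 ± 0.14 (SE), with an adjusted p of 0.00184, and 0.47 on the scale of log2(FPKM + 1), where it also passed the test (limma).

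To compare levels between genes, the deposited FPKM values (fragments scaled by gene length and library size) were used, since they account for gene length. In the controls, *Nkd1* (30.0 ± 2.00 FPKM, mean ± SD, n = 3) and *Axin1* (26.3 ± 0.44 FPKM) were the most abundant of the 10 transcripts. They were followed by *Axin2* (12.9 ± 0.41 FPKM), *Kremen1* (9.65 ± 0.49 FPKM), *Apcdd1* (8.63 ± 0.26 FPKM) and *Notum* (8.60 ± 1.05 FPKM). *Rnf43* (6.65 ± 0.29 FPKM) and *Znrf3* (3.30 ± 0.10 FPKM) came next, and *Kremen2* (1.19 ± 0.16 FPKM) and *Nkd2* (1.08 ± 0.18 FPKM) were the lowest. *Apcdd1* and *Notum* overlapped in their control samples, as did *Kremen2* and *Nkd2*, so their order within these pairs was not resolved. Among all genes tested, the control FPKM of *Nkd1* exceeded that of 91.1%, and that of *Nkd2* exceeded 25.5%.

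After LiCl the order was the same apart from the places of *Notum* and *Kremen1*. *Notum* reached 35.4 ± 5.60 FPKM and overlapped with both *Nkd1* (40.7 ± 2.90 FPKM) and *Axin1* (31.8 ± 0.93 FPKM), while *Kremen1* (8.99 ± 0.38 FPKM) came to lie below *Apcdd1* (13.3 ± 0.86 FPKM). *Axin2* was at 24.7 ± 0.42 FPKM, *Rnf43* at 7.21 ± 0.07 FPKM and *Znrf3* at 5.05 ± 0.36 FPKM. *Kremen2*, at 4.06 ± 0.22 FPKM, no longer overlapped with *Nkd2*, at 1.89 ± 0.19 FPKM. The summed FPKM of the 10 genes was 112.4, 108.8 and 103.7 in the controls and 182, 163 and 174 after LiCl. *Notum* made up 7.90%, 8.71% and 7.17% of this sum in the controls and 22.5%, 18.3% and 20.5% after LiCl. The share of *Axin1* was 23.9% to 25.2% in the controls and 17.6% to 19.8% after LiCl, and that of *Axin2* was 11.8% to 12.1% against 13.6% to 14.9%.

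**Figure D2:**
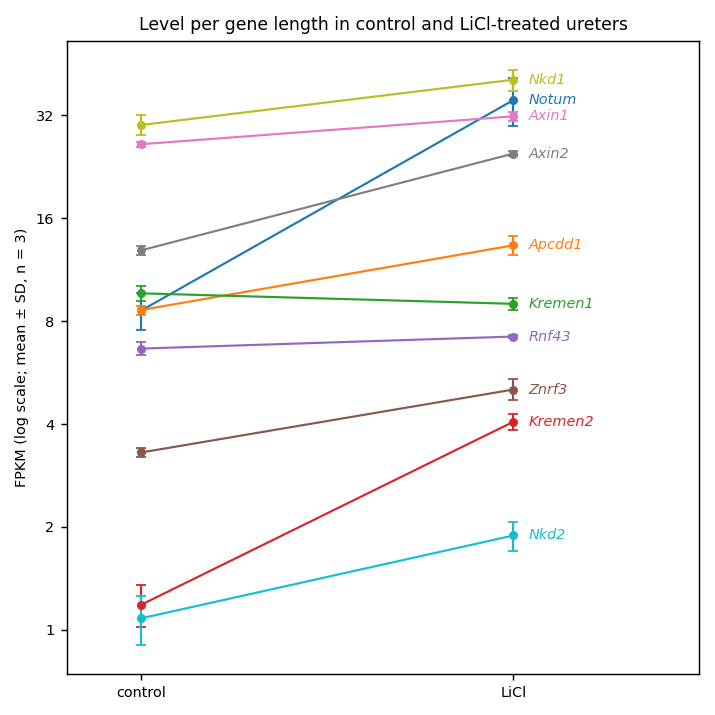
FPKM (log axis, mean ± SD, n = 3) of the 10 feedback genes in control and LiCl-treated ureters, with a line joining the means of each gene. The lines of *Notum* (8.60 to 35.4 FPKM) and *Kremen2* (1.19 to 4.06 FPKM) are the steepest, and that of *Kremen1* slopes slightly down.

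Next, the paralogs of 4 pairs were compared within each sample, a ratio that does not depend on the scaling between libraries. An exact two-sided permutation test with 3 samples against 3 cannot give a p below 0.1, so none of these differences could pass 0.05. In the AXIN pair, *Axin2* was present at 0.496, 0.491 and 0.480 FPKM per FPKM of *Axin1* in the controls and at 0.764, 0.754 and 0.818 after LiCl. The groups did not overlap, and the difference of the log2 count ratios was 0.67 ± 0.04 (SE, exact permutation p = 0.1, 0.133 after adjustment over the 4 pairs). By FPKM, *Axin1* thus remained the more abundant paralog in every sample. The share of *Axin2* in the summed FPKM of the pair went from 32.9% ± 0.39 to 43.8% ± 1.08 (SD, n = 3). This order rests on the gene lengths behind the FPKM values, 3828 bases for *Axin1* and 5506 for *Axin2*. Without scaling by length, the log2 count ratio was -0.486, -0.5 and -0.535 in the controls and 0.136, 0.117 and 0.235 after LiCl. The summed level of the pair was 39.2 ± 0.84 FPKM in controls and 56.5 ± 0.66 FPKM after LiCl.

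The KREMEN pair showed the largest shift. The ratio of *Kremen2* to *Kremen1* was 0.121, 0.137 and 0.110 in the controls and 0.433, 0.453 and 0.470 after LiCl, a difference of 1.88 ± 0.10 on the log2 scale (SE, exact permutation p = 0.1, adjusted 0.133). *Kremen1* was the predominant form in all 6 samples, by 8.22 times on average in the controls and by 2.21 times after LiCl. The share of *Kremen2* in the summed FPKM of the pair was 10.9% ± 1.05 in controls and 31.1% ± 0.89 after LiCl (SD, n = 3). The sum of the pair was 10.8 ± 0.63 FPKM in controls and 13.1 ± 0.55 FPKM after LiCl.

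In the ligase pair, the ratio of *Rnf43* to *Znrf3* was 2.03, 1.96 and 2.05 in the controls and 1.501, 1.31 and 1.49 after LiCl. All treated ratios were lower, with a difference of -0.49 ± 0.07 on the log2 scale (SE, exact permutation p = 0.1, adjusted 0.133). *Rnf43* nonetheless stayed the more abundant ligase in every sample, with 66.8% ± 0.56 of the pair in controls and 58.9% ± 1.87 after LiCl (SD, n = 3).

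The NKD pair was the most uneven. *Nkd1* exceeded *Nkd2* by 33.2, 30.0 and 21.8 times in the controls and by 21.7, 22.3 and 20.8 times after LiCl. Control replicate 3 fell among the treated samples, so the groups overlapped, and the difference of -0.37 ± 0.19 on the log2 scale was within the spread (SE, exact permutation p = 0.2, also after adjustment). It was -0.55 without control replicate 3, and -0.24 without control replicate 1. The sum of the pair went from 31.1 ± 1.84 to 42.6 ± 3.08 FPKM and was at least 95.4% *Nkd1* in every sample.

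In 4 of the 4 pairs, the paralog with the lower control level (*Axin2*, *Kremen2*, *Znrf3* and *Nkd2*) had the larger log2 fold change. The control samples enter both the level and the fold change, so these are not independent. In 3 pairs the ratios did not overlap between the groups, whereas those of the NKD pair did. Among single genes, 26.4% of all tested lay higher in every LiCl sample than in every control, and 27.8% lower. Shares for the ratios of other gene pairs were not computed. By FPKM, no pair changed its predominant member. By counts, which are not scaled by gene length, *Axin2* lay below *Axin1* in every control and above it in every LiCl sample.

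**Figure D3:**
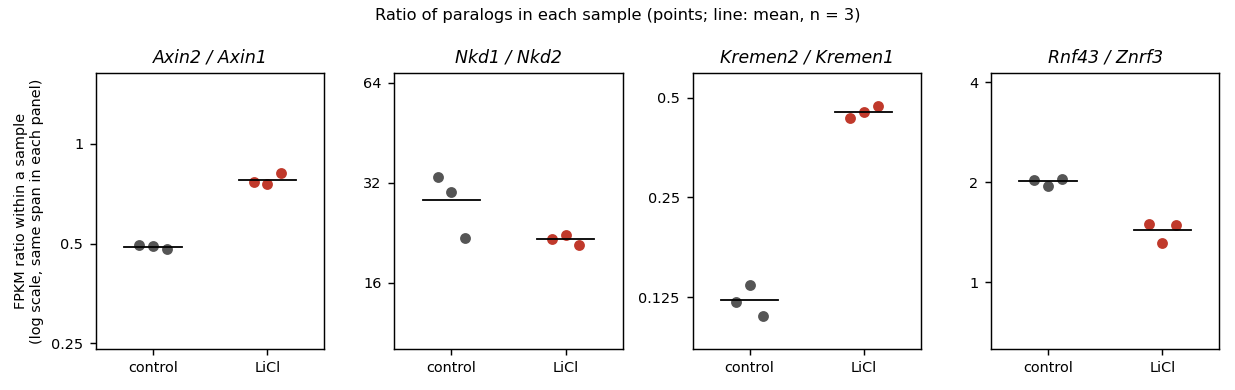
Ratio of the FPKM values of 2 paralogs within each sample (log axes of equal span; points are samples, lines are means, n = 3 per group). Control (grey) and LiCl (red) samples are apart for *Axin2* over *Axin1*, *Kremen2* over *Kremen1* and *Rnf43* over *Znrf3*, whereas control replicate 3 lies among the LiCl samples for *Nkd1* over *Nkd2*.

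Among the genes whose products the feedback regulators act upon, some rose and some fell. Of all genes tested, 21.1% rose and 22.4% fell, and the lists below were not tested against these shares. In the degradation complex and the turnover of AXIN, 2 of 14 genes rose (*Fbxw11* and *Tnks2*), 3 fell (*Apc2*, *Csnk1e* and *Ctnnb1*) and 9 did not pass, with a median log2 fold change of 0.00. *Ctnnb1*, the transcript of the protein that the complex degrades, fell from 1155 ± 17.2 to 865 ± 29.9 CPM (log2 fold change -0.42 ± 0.04, adjusted p = 6.40e-05). *Gsk3b*, which encodes the kinase inhibited by LiCl, was at 219 ± 13.4 and 220 ± 13.9 CPM (adjusted p = 0.99), and the log2 fold change of *Apc* was 0.01 ± 0.14 (adjusted p = 0.949).

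The dishevelled proteins, on which NKD acts, transmit the signal from the receptor to the complex. *Dvl1* had 72.9, 76.0 and 70.7 CPM in the controls and 138, 111 and 127 CPM after LiCl (log2 fold change 0.77 ± 0.08, adjusted p = 6.81e-05). *Dvl2* rose by 0.21 ± 0.05 on the log2 scale (adjusted p = 0.00945), and *Dvl3* was at -0.11 ± 0.05 (adjusted p = 0.109). For *Dvl1*, every treated sample lay above every control.

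Of 12 frizzled and LRP receptor genes, the targets of the ligases and of KREMEN, 2 rose, 4 fell and 6 did not pass the test. *Fzd10* rose from 26.2 ± 1.54 to 49.0 ± 3.44 CPM (log2 fold change 0.90 ± 0.07, adjusted p = 1.62e-05), and *Fzd7* rose by 0.36 ± 0.06. *Fzd1*, *Fzd4*, *Fzd8* and *Fzd9* fell, by 0.29 to 0.59 on the log2 scale. The log2 fold changes of *Fzd2*, *Fzd3*, *Fzd5* and *Fzd6*, between -0.17 and -0.01, did not pass, nor did those of *Lrp5* (0.04 ± 0.06) and *Lrp6* (-0.07 ± 0.11).

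R-spondins bind LGR receptors and block ZNRF3 and RNF43. Of the 6 tested genes of this group of 7, 2 rose, 3 fell and 1 did not pass. *Lgr5* went from 4.75 ± 0.99 to 9.37 ± 0.03 CPM (log2 fold change 0.98 ± 0.15, adjusted p = 8.19e-04) and *Rspo1* from 1.17 ± 0.27 to 2.05 ± 0.60 CPM (adjusted p = 0.0406). *Rspo3* fell from 38.0 ± 2.42 to 23.6 ± 1.52 CPM (log2 fold change -0.69 ± 0.07, adjusted p = 8.56e-05) and *Lgr4* by 0.29 ± 0.05 on the log2 scale. *Rspo2*, at under 1 CPM in every group mean, fell by 1.23 ± 0.29, *Lgr6* did not pass the test, and *Rspo4* had too few counts to be tested.

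**Figure D4:**
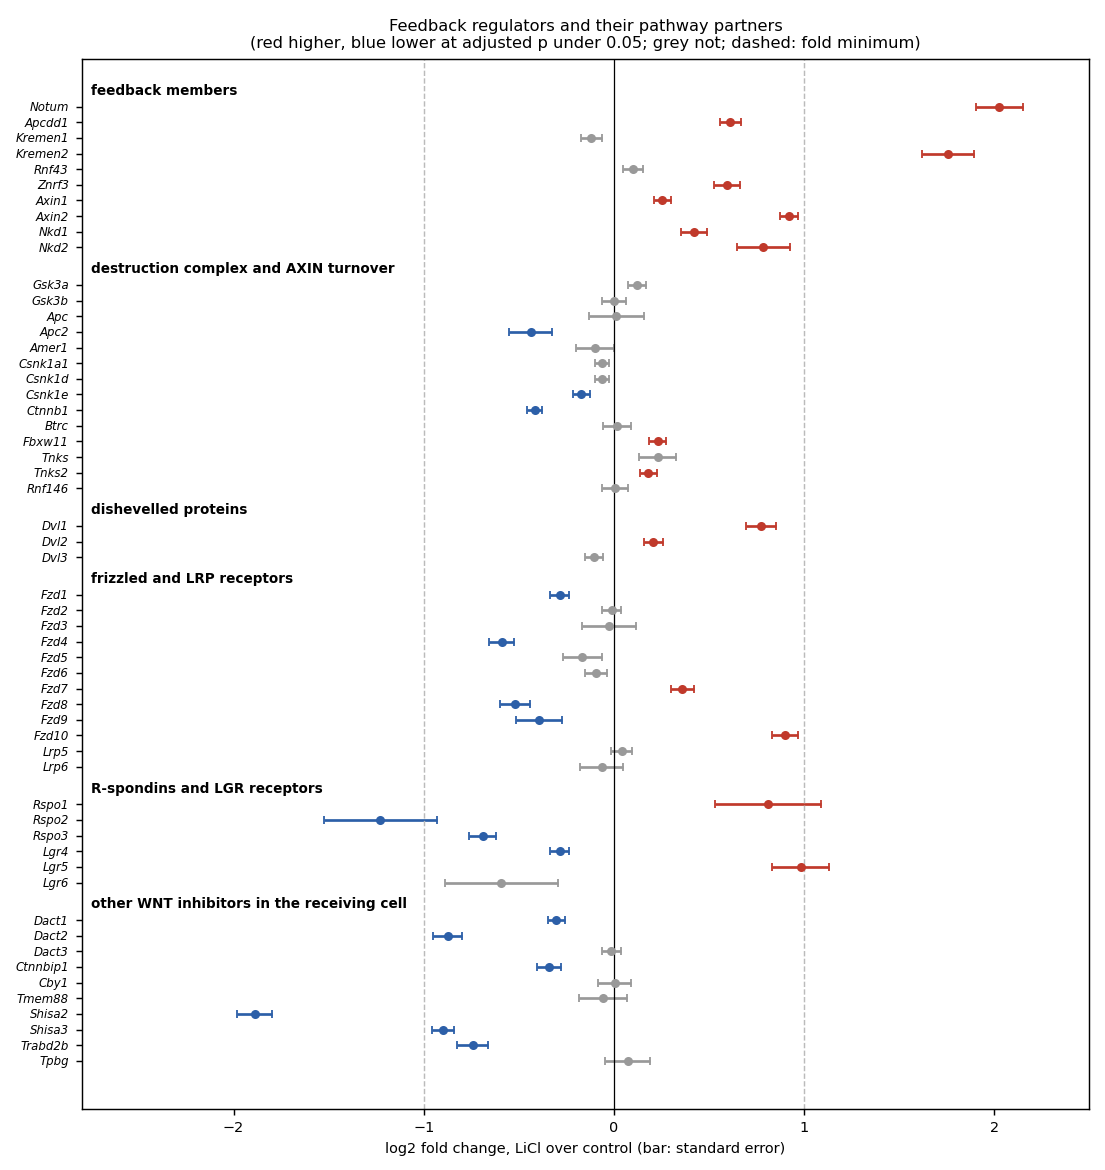
Log2 fold change (LiCl over control, bars for the standard error) of the 10 feedback genes and of pathway genes grouped by role. Red genes rose and blue genes fell at an adjusted p under 0.05, grey genes did not pass, and dashed lines mark a log2 fold change of 1 in either direction. Of the 10 feedback genes, 8 are red. The list of other WNT inhibitors in the receiving cell holds 6 blue points and no red ones, and includes *Trabd2b*, whose product acts on the ligands. Over all genes tested, 21.1% rose and 22.4% fell. The difference between the lists was not tested.

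Inhibitors outside the 10 genes gave other counts. Of 10 tested genes for other WNT inhibitors in the receiving cell, none rose in edgeR, also at an unadjusted p under 0.05, and 6 fell, with a median log2 fold change of -0.32. *Shisa2*, which retains frizzled receptors inside the cell, fell most, from 51.3 ± 2.76 to 13.8 ± 1.88 CPM (log2 fold change -1.89 ± 0.09, adjusted p = 1.11e-06). Its paralog *Shisa3*, together with *Dact2*, *Trabd2b* (a protease that cleaves the ligands themselves), *Ctnnbip1* and *Dact1*, fell by 0.30 to 0.90. *Trabd2b* is thus an exception in a list named for the receiving cell. Of 11 tested secreted antagonists, 1 rose (*Sostdc1*) and 5 fell (*Dkk1*, *Dkk2*, *Dkk3*, *Frzb* and *Sfrp2*). The KREMEN ligands *Dkk1* (log2 fold change -0.79 ± 0.10, adjusted p = 2.90e-04) and *Dkk2* (-0.79 ± 0.05, adjusted p = 6.71e-06) were singled out after their values were seen. The difference between these lists and the 10 feedback genes was not tested.

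NOTUM acts on the ligands, of which 15 of 21 genes for WNT ligands and their secretion were tested, with 5 higher and 6 lower. *Wnt6* rose from 4.85 ± 0.21 to 15.8 ± 1.12 CPM (log2 fold change 1.70 ± 0.10, adjusted p = 2.62e-06), and *Wnt9a* from 2.92 ± 0.60 to 11.6 ± 1.21 CPM (log2 fold change 1.99 ± 0.16, adjusted p = 2.11e-05). *Wnt2* (log2 fold change -1.66 ± 0.27) and *Wnt16* (-1.40 ± 0.35) fell. Among 8 genes for TCF/LEF factors and their co-activators, *Tcf7* rose by 0.96 ± 0.05 and *Lef1* by 0.49 ± 0.08, *Tcf7l2* fell by 0.16 ± 0.05, and the remaining 5 did not pass.

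Finally, the profiles most like those of *Notum* and *Axin2* were sought among 15438 other genes, by the Euclidean distance between mean-centred log2 CPM over the 6 samples. The nearest to *Notum* were *Efhb* (distance 0.25), *Muc2* (0.25), the overlapping transcript *Myadml2os* (0.27), *AU015836* (0.30) and *Atf5* (0.31), with log2 fold changes of 1.95 to 2.21. The nearest to *Axin2* were *Mark1* (distance 0.03), *Ttf2* (0.07), *Esco2* (0.08), *Tcf7* (0.09) and *Gen1* (0.10), with log2 fold changes of 0.92 to 0.96. These likenesses describe the same 6 libraries in which the genes were tested.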

How the data were processed

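RNA-Seq was performed on ureter explants of 2 groups of 3 samples, grouped by the labels. The authors deposited raw counts per Ensembl gene without normalization, and FPKM values per sample. The gene lengths that counts and FPKM imply were whole numbers in every sample (within 0.01 base) for 100% of 13480 genes with over 50 counts per sample with DESeq2's size factors, and for 0% with total counts. Reads were aligned to GRCm39. The submitters' processing notes list fastp 0.23, STAR 2.7, featureCounts 2.0 and DESeq2 1.40, whereas the methods name HISAT2 as the aligner. The strand setting of the counting is not given in the sources used here. Symbols (for 52073 of 56748 identifiers) and overlapping genes came from GENCODE vM21, promoter windows from RefSeq (GRCm38.p6).

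LiCl and control counts were compared in R 4.3.3 by the quasi-likelihood F test of edgeR 4.0.16, after filterByExpr and TMM scaling, with Benjamini-Hochberg adjustment over 18188 genes. The standard error of a log2 fold change is its size over the root of F. A gene rose or fell at an adjusted p under 0.05, and the fold minimum was a log2 fold change of 1 in either direction. Paralog ratios were tested on log2 ratios of counts plus 0.5. Same-group samples differed by more than counting noise (chi-square per degree of freedom 5.93 to 14.5). The scripts were tested on simulated counts. Alternatives were RLE or library-size scaling, DESeq2 1.42.0, no filter or at least 10 counts in every sample, glmTreat, limma 3.58.1 on log2(FPKM + 1) or log2(FPKM + 0.1) for genes with a mean of at least 0.5 FPKM, a replicate block, leaving out replicates in turn, and LiCl replicate 2 alone.

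The members and gene lists were chosen with earlier results of these data known. The genes named are the 10 members, their direct partners, genes of the WNT lists past the fold minimum, and the 5 nearest profiles of *Notum* and *Axin2* among genes whose CPM averaged 1 or more. Others were named, from counts of 6 or fewer, after their values were seen.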

Additional observations from a re-analysis of the deposited data

How the results depend on the processing

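*Notum* and *Kremen2* were the only genes of the 10 that passed the fold minimum in the main test and in each alternative, glmTreat included, and none of the 10 fell in any of them. Except under glmTreat, which tests against the fold minimum, 8 rose in each alternative except LiCl replicate 2 alone, where *Nkd2* (log2 fold change 0.62, adjusted p = 0.0612) was lost and 7 rose. That test rests on a lone treated sample assumed to vary like the controls. Leaving out each replicate in turn gave log2 fold changes of 1.91 to 2.14 for *Notum*, 1.66 to 1.85 for *Kremen2*, 0.91 to 0.95 for *Axin2* and 0.71 to 0.93 for *Nkd2*, and differences of the log2 ratio of 0.63 to 0.69 (AXIN), 1.81 to 1.96 (KREMEN), -0.53 to -0.43 (RNF43 over ZNRF3) and -0.55 to -0.24 (NKD). On log2(FPKM + 1) the log2 fold change was 0.47 for *Nkd2* and 1.21 for *Kremen2*, and the difference of the log2 ratio was 1.30 for the KREMEN pair and -0.05 for the NKD pair, since the addition shrinks the ratios of weakly expressed genes. Across alternatives *Kremen1* had log2 fold changes of -0.18 to -0.08 (adjusted p = 0.0549 to 0.344) and *Rnf43* 0.06 to 0.14 (0.0926 to 0.471). Same-numbered samples did not deviate together (correlations 0.02, -0.14 and 0.13). These correlations cannot settle whether the numbers pair the samples, which the sources used here do not state. With a replicate block, the same 2 genes passed the fold minimum and 8 rose (478 genes higher and 801 lower in all, against 498 and 835), and the log2 ratio differences had an exact sign-flip p = 0.25, the smallest that sign flips of 3 pairs allow. Over all genes, the calls with a fold minimum were 177 higher and 141 lower on log2(FPKM + 1), 171 and 139 without its filter, 347 and 430 on log2(FPKM + 0.1), and 172 and 162 with glmTreat.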

Other observations

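The marker counts below stand beside 21.1% of all genes tested that rose and 22.4% that fell. Of 10 nephron progenitor and kidney markers, 2 rose and 3 fell (summed CPM 260.0 to 262 in controls, 227 to 239 after LiCl). Of 5 endothelial markers, none rose, also at an unadjusted p under 0.05, and 1 fell (415 to 518 against 361 to 450 CPM). Of 5 macrophage markers, 1 rose and 2 fell (50.2 to 80.7 against 53.0 to 66.9 CPM). Of 5 erythroid markers, 1 rose and none fell (454 to 666 against 595 to 920.4 CPM), and of 5 neural crest and neuronal markers, none passed the test and 1, *Elavl4*, had an unadjusted p under 0.05 (136 to 160 against 110 to 155 CPM).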
